A study of Mus musculus with 26 samples.

Results

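The dorsal hippocampus (dHC) of mice that had swum was compared with that of mice left in the home cage, in small RNA libraries. The members were the 12 libraries labelled dHC, of 26 in the series: 6 of mice collected 45 min after a swim of 6 min in water at 18 °C, and 6 of control mice that did not swim. All were male C57BL/6J mice aged 2 to 3 months, and tissue of both hemispheres was used. The labels place the libraries in 3 processing blocks. Each block held 2 swim and 2 control dHC libraries, so swim and block were not confounded. Libraries are named below by the number in their label. Nothing in the labels says that each library came from a separate mouse, and p-values therefore measure the spread between these libraries, which may be technical in part. Because pieces of bulk tissue were measured, fewer cells of a type and less RNA per cell cannot be told apart.

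A miRNA is cut from a hairpin precursor as a strand of about the length of a small interfering RNA, and guides Argonaute proteins to mRNAs that pair with its seed, bases 2 to 8. Precursors with the same seed form a family, which can have copies on several chromosomes. Neighbouring precursors that are cut from a shared primary transcript form a genomic cluster. In neurons the supply of some miRNAs, among them miR-132, follows synaptic activity through the transcription factor CREB. Small RNA libraries also hold pieces of tRNA, of which fragments from the 5′ end are made by nucleases such as angiogenin when cells are stressed, and pieces of rRNA.

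The results turn on the abundant miRNAs of brain, on the few miRNAs with the smallest p and on the miRNAs best known from neuronal activity. Their mature strands are given here as RNA, from RefSeq on GRCm38.p6, 5′ to 3′, with the seed in capitals, so that it can be seen which miRNAs share it and how little some members differ. The first lines are let-7 members, which all carry one seed.
let-7a-5p: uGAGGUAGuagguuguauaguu
let-7c-5p: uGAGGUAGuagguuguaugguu
let-7f-5p: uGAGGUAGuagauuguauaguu
let-7g-5p: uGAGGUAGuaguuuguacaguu
miR-9-5p: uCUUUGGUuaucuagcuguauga
miR-26a-5p: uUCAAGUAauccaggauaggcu
miR-26b-5p: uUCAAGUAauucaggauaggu
miR-30a-5p: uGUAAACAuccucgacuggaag
miR-30c-5p: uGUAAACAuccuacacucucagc
miR-30e-5p: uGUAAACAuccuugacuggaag
miR-125b-5p: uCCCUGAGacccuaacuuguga
miR-128-3p: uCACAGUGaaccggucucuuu
miR-10a-5p: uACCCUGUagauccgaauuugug
miR-10b-5p: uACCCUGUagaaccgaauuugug
miR-132-3p: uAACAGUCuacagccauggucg
miR-212-3p: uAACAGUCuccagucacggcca
miR-183-5p: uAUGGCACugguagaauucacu
miR-182-5p: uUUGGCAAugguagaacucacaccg
miR-3084-3p: uUCUGCCAgucuccuucagac
miR-3084-5p: gUUGAAGGuuaauuagcagagu
miR-665-3p: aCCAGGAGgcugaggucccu
miR-679-5p: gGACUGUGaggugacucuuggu
miR-146b-5p: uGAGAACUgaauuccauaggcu
Of the 33 mature miRNAs looked up, 31 were found, and miR-30b-5p and miR-124-3p were not. Mature let-7a and let-7f are alike at 21 of 22 bases, and miR-10a and miR-10b at 22 of 23. How reads were split between such members was not tested, and a family sum does not depend on that split. The counts were given per precursor and do not separate its arms.

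Depth was uneven. Control libraries held between 465387 and 3929781 miRNA counts, and swim libraries between 1357739 and 4819724. The low end among controls was library 24, and the other 5 controls began at 1681826. The share of miRNA counts taken by the 10 most abundant miRNAs was 51.8% in library 24 and between 40.1% and 45.0% in the other controls. Swim library 22, the shallowest of its group and of the same block as library 24, had 49.1%, where the other swim libraries lay between 37.7% and 44.3%. Library 24 had 262 miRNAs with at least 10 counts, against between 330 and 420 in the other controls. Values without it are given beside many of the results below.

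**Figure D1:**
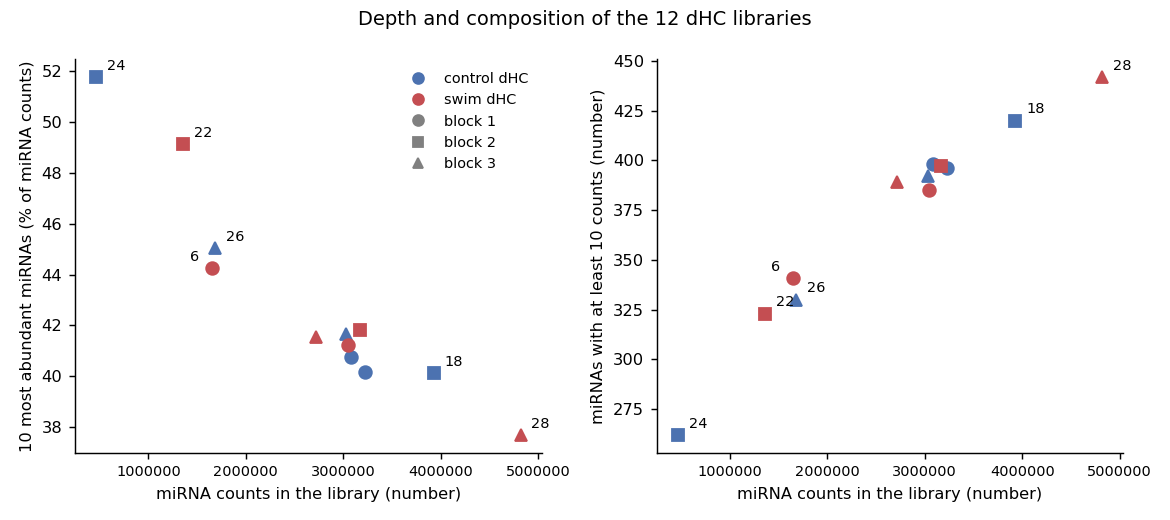
Share of miRNA counts taken by the 10 most abundant miRNAs in percent (left) and number of miRNAs with at least 10 counts (right) against the number of miRNA counts of each of the 12 dHC libraries, with color for group, shape for block and the library number beside 6 points. Control library 24 lies alone at the shallow end, with 51.8% and 262 miRNAs, and swim library 22 has the next highest share, 49.1%.

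No miRNA, family, cluster, tRNA or rRNA entry passed the test. After copies of a precursor were summed, 384 miRNAs were tested with edgeR's quasi-likelihood test, with block in the model, and 0 (0%) had a Benjamini-Hochberg adjusted p under 0.05. At an unadjusted p under 0.05 there were 5 (1.30%), of which 4 were higher and 1 lower after swim. DESeq2 also called 0, with 4 of 388 at an unadjusted p under 0.05, and limma voom with sample weights called 0, with 11. Of 274 families 0 were called, and 3 (1.09%), all higher, had an unadjusted p under 0.05 (3 with DESeq2 and 4 with limma voom). These 3, mir-3084, mir-665 and mir-679, are families of 1 miRNA each and are the same items as among the 5 miRNAs. Of 59 clusters 0 were called and 0 (0%) had an unadjusted p under 0.05, also with DESeq2 and limma voom. Of 155 tRNA and rRNA entries 0 were called, and 3 (1.94%), all higher, had an unadjusted p under 0.05 (3 with DESeq2 and 4 with limma voom). The smallest adjusted p in edgeR's quasi-likelihood test was 0.9993 for miRNAs and families, 0.9235 for clusters and 0.9936 for tRNA and rRNA entries. At each of these levels, 0 items had all swim libraries above or all below the control libraries.

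How large a change the libraries leave possible is given by the intervals. The 95% confidence interval of the fold change lay within 2-fold for 368 of 384 miRNAs, within 1.5-fold for 262 and within 1.25-fold for 52. For families the same counts were 260, 179 and 38 of 274. Clusters had a median standard error of the log2 fold change of 0.13 against 0.17 for single miRNAs, and 24 of 59 lay within 1.25-fold. Among the 50 most abundant miRNAs all 50 intervals lay within 2-fold, and 49 within 1.5-fold. Changes within these limits stay possible for many single miRNAs at this number of libraries. The intervals are not adjusted for the number of items tested, and the size of change needed for a call was not computed.

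Among the 10 most abundant miRNAs of dHC 3 were on the list of neuron miRNAs and 4 were of the let-7 family. First was miR-9, a regulator of neural progenitors, with 11.6% of miRNA counts from 3 precursor copies (on GRCm38, mir-9-1 at chr3:88215598-88215686, mir-9-2 at chr13:83738814-83738885, mir-9-3 at chr7:79505264-79505353). Its level as normalized CPM, counts scaled to a common total with TMM factors, lay between 88460 and 207700 in control libraries (median 104200) and between 80550 and 145300 in swim libraries (median 110500). Library 24 was the highest control and library 22 the highest swim library, and the groups overlapped. Swim over control, the log2 fold change was -0.10 (standard error 0.20), and it became 0.10 without library 24 and -0.23 without library 6. Next came mir-26a (5.91%), whose precursors lie within phosphatase genes, mir-26a-1 within Ctdspl at chr9:119031796-119031885 and mir-26a-2 within Ctdsp2 at chr10:126995530-126995613. For mir-26a the log2 fold change was -0.17 (standard error 0.19), or 0.01 without library 24.

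Further down, mir-124 (4.54%), which holds down non-neuronal transcripts in neurons, lay between 38530 and 56300 normalized CPM in control libraries (median 44780) and between 34750 and 68190 after swim (median 41230). Here swim library 6 was the highest of all and the groups overlapped, with a log2 fold change of -0.05 (standard error 0.14). For mir-128 (3.87%), a brake on neuronal excitability, the log2 fold change was -0.13 (standard error 0.15) and -0.04 without library 24. For mir-125b (3.43%), a relative of the worm lin-4, it was -0.23 (standard error 0.16), with swim library 6 the lowest of all 12 at 16090 normalized CPM and the control libraries from 26580 upward. Among the next 5, let-7a, let-7c, let-7g and let-7f had log2 fold changes between -0.16 and -0.11 (between -0.15 and -0.03 without library 24), and mir-30a had 0.05 (standard error 0.12). Thus 9 of the 10 most abundant miRNAs had a negative value, of which none passed the test. Without library 24 the number was 6 of 10, and with library totals in place of TMM scaling 8 of 10. Library 24 was the highest control for 8 of these 10 miRNAs, and library 22 the highest swim library for 8.

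Summed by family, all 10 of the most abundant families had a log2 fold change below 0, from -0.23 (mir-125, with mir-351) to -0.0058 (mir-30), and 0 passed the test. Without library 24, 5 were below 0, and with library totals in place of TMM scaling 6 were. Within blocks the number below 0 was 3 in block 1, 9 in block 2 and 8 in block 3.

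**Figure D2:**
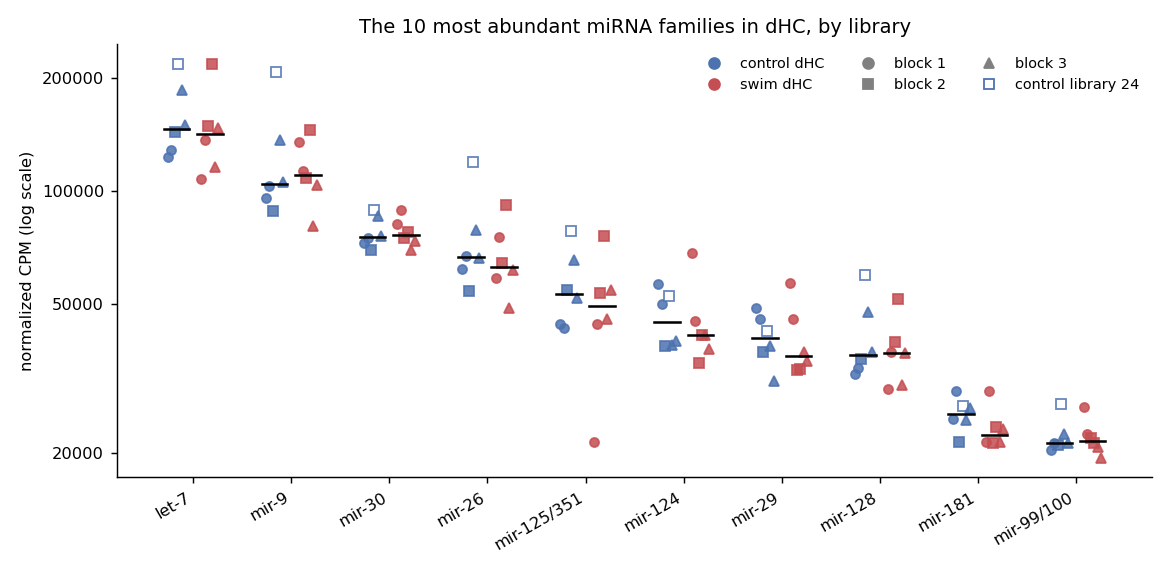
Normalized CPM on a log scale of the 10 most abundant miRNA families in each of the 12 dHC libraries, in order of abundance, with color for group, shape for block, control library 24 as an open square and a black line at each group's median. Swim and control overlap in every family, and library 24 is the highest control in 7 of the 10.

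The let-7 family, which holds cells in a differentiated state, took 14.97% of miRNA counts. Its sum was between 123300 and 218100 normalized CPM in control libraries (median 146300) and between 107200 and 217800 after swim (median 141900). The highest libraries of the groups, 24 and 22, were nearly equal, and library 6 was the lowest. Swim differed from control by -0.13 on the log2 scale (95% confidence interval -0.44 to 0.19) and -0.07 without library 24. Of the 11 members, 10 had a value below 0, down to -0.16 for let-7d, and mir-98, which carries the same seed, had 0.02. These members are not independent, since all share the same libraries, and several differ by a single base.

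The mir-30 family (7.77%) had the smallest difference of the 10 families. Control libraries lay between 69610 and 88970 normalized CPM (median 75450) and swim libraries between 69670 and 89090 (median 76360), so the ranges were nearly the same. For the sum it was -0.0058 on the log2 scale (95% confidence interval -0.24 to 0.23). Its members did not have one sign. Values were 0.05 for mir-30a, 0.08 for mir-30d and 0.03 for mir-30e, and -0.28 for mir-30b and -0.26 for mir-30c. The last had an unadjusted p of 0.080 in edgeR, and mir-30b one of 0.043, while mir-30f was too scarce to be tested. For mir-30b, whose precursor lies at chr15:68337415-68337510 in no annotated gene on its strand, control libraries lay between 2301 and 5065 normalized CPM (median 3540) and swim libraries between 1502 and 3715 (median 3242). The lowest of each group, libraries 14 and 6, were of block 1, and 3 of 6 swim libraries were above the control median. The within-block log2 differences of mir-30b were -0.45, -0.40 and 0.0086, and its value was -0.32 without library 24 and -0.25 without library 6.

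The other large families had intervals that included 0. For the family of mir-125 and mir-351 (5.20%) control libraries lay between 43000 and 78340 normalized CPM (median 53090) and swim libraries between 21430 and 75840 (median 49440). Library 6 stood at the low end, and without it the log2 fold change of -0.23 (standard error 0.17) was -0.14. Members mir-125a (-0.22), mir-125b (-0.23) and mir-351 (-0.12) lay on the same side of 0. For mir-26 (6.91%) the log2 fold change was -0.17 (standard error 0.18) and -0.0086 without library 24. For mir-29 (4.06%), known to repress collagens and DNA methyltransferases, it was -0.02 (standard error 0.11), with mir-29a at 0.02, mir-29b at -0.12 and mir-29c at -0.05. For mir-181 (2.44%), which is also abundant in lymphocytes, it was -0.13 (standard error 0.11) and below 0 in each block (-0.10, -0.10 and -0.19). Swim library 16 was the highest of that family at 29340 normalized CPM, and 1 of 6 swim libraries was above the control median. For mir-99/100 (2.21%), regulators of mTOR, it was -0.01 (standard error 0.11) and 0.05 without library 24.

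Genomic clusters were runs of precursors on one strand with neighbours at most 10 kb apart. There were 72 of them with 309 precursor entries, which held 52.7% of the miRNA counts in dHC, and 59 could be tested. The one with the most counts was mir-379 to mir-3072, 36 entries at chr12:109709060-109747960, in the imprinted Dlk1-Dio3 region, whose miRNAs are made from the maternal allele and are abundant in neurons. It includes mir-134, which acts on dendritic spines. Its sum (4.15%) lay between 35200 and 45790 normalized CPM in control libraries (median 40020) and between 36260 and 49280 after swim (median 40900). The groups overlapped, with library 16 the highest of all, and 3 of 6 swim libraries were above the control median. The log2 fold change was 0.05 (standard error 0.08, 95% confidence interval -0.13 to 0.23), and 0.07 without library 24. Of its 36 members 19 had values above 0 and 17 below, from -0.46 (mir-1197) to 0.54 (mir-679).

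The neighbouring cluster mir-770 to mir-136, at chr12:109563692-109595388, has 13 entries of 12 miRNAs, some of which lie antisense to Rtl1 and can cut its mRNA. Control libraries lay between 26430 and 35580 normalized CPM (median 32750) and swim libraries between 24760 and 34840 (median 31150). Its log2 fold change of -0.04 (standard error 0.07, 95% confidence interval -0.20 to 0.12), had the smallest standard error among the clusters named here, and 8 members were above 0 and 4 below. Its 2 entries of mir-3070 and mir-665 are among the items with the smallest p described below, as is mir-679 of the larger cluster. The sum of neither cluster had an unadjusted p under 0.05 in edgeR.

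Other abundant clusters hold precursor copies of miRNAs that also lie elsewhere, and such copies share reads. Their values thus largely repeat those of the miRNAs above and are not separate results for the locus. The sum of mir-3093 and mir-9-1 had a log2 fold change of -0.10 (0.10 without library 24 and -0.23 without library 6), that of let-7a-1, let-7f-1 and let-7d one of -0.14 (-0.09 without library 24), and that of mir-26a-2 and mir-546 one of -0.17 (0.01 without library 24). For mir-17 to mir-92a-1, a promoter of proliferation at chr14:115043671-115044506, it was 0.04 (standard error 0.08) and 0.0064 without library 24, with 2 members above 0 and 4 below. The mir-183, mir-96 and mir-182 cluster, best known from sensory cells and at chr6:30165918-30169737 in no annotated gene on its strand, had the smallest p of all clusters. Control libraries lay between 19.5 and 42.1 normalized CPM (median 28.3) and swim libraries between 21.2 and 50.6 (median 36.8). The groups overlapped over most of their range, and 5 of 6 swim libraries were above the control median. For the sum this gave a log2 fold change of 0.31 (standard error 0.16, unadjusted p = 0.078, adjusted p = 0.9235 in edgeR's quasi-likelihood test), with 0.31, 0.47 and 0.22 in the blocks and 0.30 without library 24. The values of its members were 0.27 for mir-183 and 0.37 for mir-182, and mir-96 was too scarce to be tested.

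Among the remaining clusters with the smallest p, the precursor pairs of mir-1a and mir-133a, miRNAs of muscle, shared their counts and had the same value of 0.16 (standard error 0.10), with 0.30, 0.24 and -0.06 in the blocks and 0.08 without library 6. The pair mir-222 and mir-221 at chrX:19146294-19146971, which are abundant in vessels, had -0.16 (standard error 0.11), with -0.14, -0.0013 and -0.36 in the blocks. The pair mir-547 and mir-201 had -0.28 (standard error 0.18), with -0.28, -0.27 and -0.39 in the blocks. Their levels were between 7.61 and 13.7 normalized CPM in control libraries and between 5.72 and 14.1 after swim, so that the swim libraries spanned the control range.

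**Figure D3:**
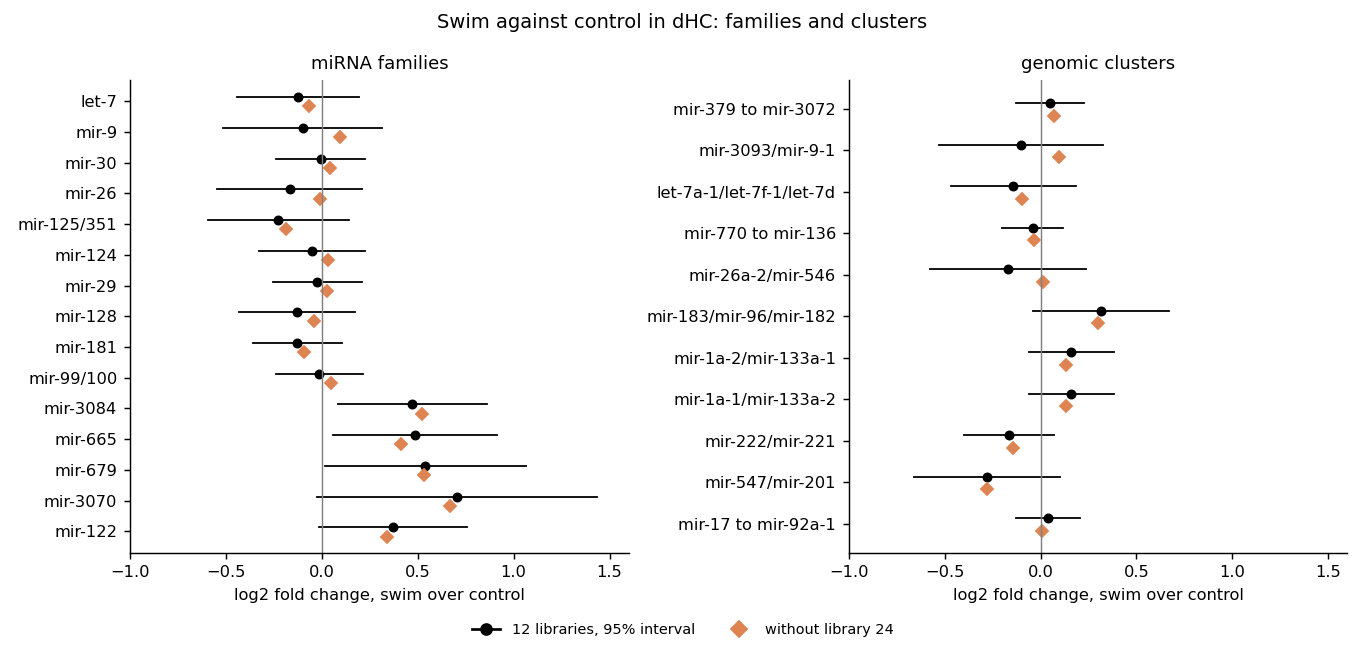
Log2 fold change, swim over control, of the named miRNA families (left) and genomic clusters (right), with black points and 95% confidence intervals from all 12 libraries and orange diamonds for the value without control library 24. All 10 of the most abundant families lie below 0 with 12 libraries and 5 of them without library 24, and the intervals of the cluster sums include 0.

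The 5 miRNAs at an unadjusted p under 0.05 in edgeR were mir-3084, mir-665, mir-679, mir-30b and mir-10b, and apart from mir-30b each held at most 0.0115% of the miRNA counts. For mir-3084, with the precursors mir-3084-1 at chr19:24942235-24942303 in an intron of Cbwd1 and mir-3084-2 at chr19:60774329-60774397 in an intron of Eif3a, control libraries lay between 28.6 and 44.6 normalized CPM (median 31.96) and swim libraries between 39.2 and 61.6 (median 48.5). All 6 swim libraries were above the control median, and library 24 was the highest control, within the range of the swim libraries. The log2 fold change was 0.47 (standard error 0.18, unadjusted p = 0.021, adjusted p = 0.9993 in edgeR), with 0.61, 0.42 and 0.32 in the blocks. It was 0.52 without library 24 and 0.32 (unadjusted p = 0.076) without library 6, the highest swim library.

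Both mir-665 and mir-679 lie in the chromosome 12 clusters. For mir-665 (chr12:109586314-109586407) control libraries lay between 55.7 and 146.3 normalized CPM (median 82.1) and swim libraries between 49.9 and 220.3 (median 117.2). The lowest library was a swim library, 16, and 5 of 6 swim libraries were above the control median. This gave a log2 fold change of 0.49 (standard error 0.20, unadjusted p = 0.027 in edgeR), 0.41 without library 24 and 0.33 without library 6. For mir-679 (chr12:109715577-109715650) control libraries lay between 4.54 and 16.8 normalized CPM (median 9.94) and swim libraries between 6.64 and 38.3 (median 12.4). Library 6 was the highest of all, and the log2 fold change of 0.54 (standard error 0.24) was 0.29 without it. In the same region, mir-3070 had 0.70 (standard error 0.34), but at levels of at most 6.64 normalized CPM and with library 24 at a count of 0.

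The precursors of mir-10b (chr2:74726070-74726137, in an intron of Hoxd3) and mir-10a (chr11:96317165-96317274) lie in the Hox clusters, and their mature strands differ by 1 base. For mir-10b control libraries lay between 20.1 and 38.6 normalized CPM (median 24.2) and swim libraries between 22.4 and 49.6 (median 34.1). The values of mir-10a were between 18.8 and 38.9 (median 24.8) in control libraries and between 19.9 and 48.4 (median 33.9) after swim. Libraries 8 and 6, both of block 1, were the highest of their groups for both. The log2 fold changes were 0.45 for mir-10b (unadjusted p = 0.046) and 0.42 for mir-10a (unadjusted p = 0.051 in edgeR). Both were positive in blocks 1 and 3 and negative in block 2 (-0.03 and -0.14).

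The rest of the 10 smallest p belonged to miRNAs of other tissues, of inflammation and of a repeat cluster. For mir-122, the main miRNA of liver, control libraries lay between 5.58 and 10.8 normalized CPM (median 8.39) and swim libraries between 10.4 and 13.3 (median 11.2). All 6 swim libraries were above the control median, library 24 was the lowest control, and the log2 fold change was 0.37 (standard error 0.18). For mir-146b (chr19:46342762-46342870, in an intron of Mfsd13a), which NF-kB signaling induces, control libraries lay between 842.3 and 1275 normalized CPM (median 1104) and swim libraries between 1132 and 1544 (median 1279). All 6 swim libraries were above the control median, and the values in the blocks were 0.35, 0.22 and 0.18. Over all blocks mir-146b had a log2 fold change of 0.25 (standard error 0.12, unadjusted p = 0.065 in edgeR), 0.28 without library 24 and 0.13 without library 6. For mir-669l (chr2:10468971-10469068), one of many copies in an intron of Sfmbt2, it was -0.49 (standard error 0.26), with swim library 22 the lowest at 1.83 normalized CPM.

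**Figure D4:**
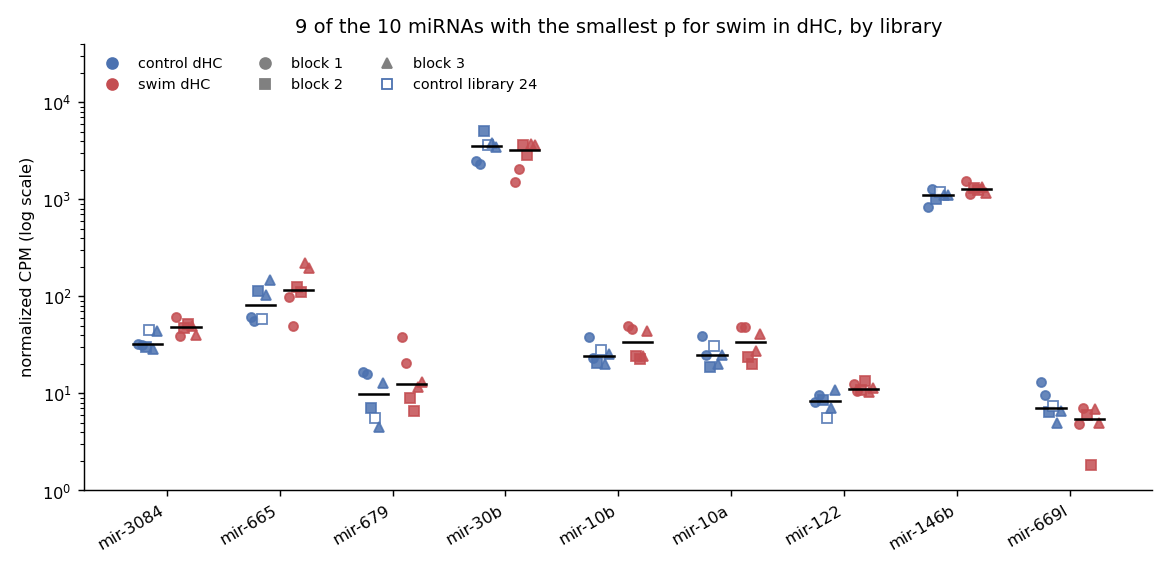
Normalized CPM on a log scale of 9 of the 10 miRNAs with the smallest p, in each of the 12 dHC libraries, with color for group, shape for block, control library 24 as an open square and a black line at each group's median (mir-3070 is left out because 1 library had a count of 0). In each miRNA the groups overlap, also in mir-3084, mir-122 and mir-146b, where all 6 swim libraries lie above the control median.

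None of the miRNAs best known from synaptic activity passed the test. For mir-132 (chr11:75173682-75173747), control libraries lay between 5682 and 8207 normalized CPM (median 6613) and swim libraries between 5331 and 8063 (median 6575). The groups covered nearly the same range, and 3 of 6 swim libraries were above the control median. Between the groups the log2 fold change was -0.03 (95% confidence interval -0.30 to 0.23). For mir-212 (chr11:75173388-75173478), cut from the same primary transcript and with the same seed, control libraries lay between 1473 and 1640 normalized CPM (median 1574) and swim libraries between 1310 and 1778 (median 1588). For mir-212 the log2 fold change was -0.0075 (95% confidence interval -0.21 to 0.19). The list of 30 miRNAs studied in neuronal activity and stress held 28 that could be tested, of which 0 were called and 0 had an unadjusted p under 0.05 in edgeR, 9 had values above 0 and 19 below. Its median log2 fold change was -0.02, against -0.0024 over all miRNAs tested, with values from -0.20 (mir-15a) to 0.37 (mir-182). The synaptic regulators mir-134 and mir-138 had 0.19 (standard error 0.17) and -0.0025 (standard error 0.14).

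The summed levels of marker miRNAs of cell types in the tissue overlapped between the groups. The 13 tested neuron miRNAs, among them mir-9, mir-124 and mir-128, summed to between 211000 and 383200 normalized CPM in control libraries (median 240900) and between 201000 and 292900 after swim (median 244100), and 3 of the 10 most abundant miRNAs in dHC were on that list. In the neuron list 3 tested members had values above 0 and 10 below, with a median of -0.05. Of the neuron sum 44.0% was mir-9, which was highest in control library 24 at 207700 normalized CPM. Without that library the value of mir-9 was above 0, while that of mir-128 stayed below. Oligodendrocyte miRNAs summed to between 14830 and 20720 in control libraries and between 13600 and 17600 after swim. There mir-219a was above 0 (0.07) and the other 3 tested members were below, with a median of -0.13. For blood miRNAs, such as mir-451a and mir-486b, the sums were between 657.2 and 986.6 and between 659.6 and 859.8, for microglia and immune cells between 1710 and 3111 and between 1965 and 3002, and for choroid plexus and ciliated cells between 3406 and 6494 and between 2657 and 5034. Tested members above and below 0 numbered 2 and 2 for blood, 2 and 3 for microglia and immune cells, and 6 and 5 for choroid plexus. The medians were 0.04, -0.08 and 0.04. The 5 tested miRNAs of endothelial and mural cells, such as mir-126a, summed to between 29660 and 41740 in control libraries and between 33420 and 37570 after swim. Of these 5, 2 had values above 0 and 3 below, with a median of -0.05. The astrocyte list summed to between 19450 and 28280 (median 24300) in control libraries and between 21440 and 35960 (median 24430) after swim. Of its 5 tested members 4 had values above 0, with a median of 0.12. All 4 are shared with other lists. They are mir-143 and mir-145a (endothelial and mural cells), and mir-31 and mir-449a (choroid plexus and ciliated cells). The remaining member, mir-21a, had -0.01. Of 5 tested miRNAs of liver and muscle 4 had values above 0, with a median of 0.18, and their sum was between 1057 and 1344 in control libraries and between 1181 and 1539 after swim. None of the markers tested had an unadjusted p under 0.05 in edgeR.

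Among pieces of tRNA, no abundant entry passed the test. The largest entry was tRNA-Gly-GCC, with 0.997% of all counts, at between 7560 and 15790 normalized CPM of the whole table in control libraries (median 9564) and between 7831 and 10590 after swim (median 10020). Control library 26 was the highest of all, and 5 of 6 swim libraries were above the control median. Its log2 fold change came to -0.07 (standard error 0.17), with 0.22, 0.08 and -0.46 in the blocks. The next entries, tRNA-Glu-CTC, tRNA-Lys-CTT and an entry of tRNA-Asp-GTC that matched the annotation but not the genome, had -0.0079, -0.04 and -0.05. For tRNA-Gly-CCC it was -0.30 (standard error 0.18), with swim library 6 the lowest at 1476 and control library 26 the highest at 4180 normalized CPM. Library 26 was the highest control for each of these 5.

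The 5′ ends, from which some of the stress-induced fragments come, had values below 0 for the 5 most abundant. Log2 fold changes were -0.04 for tRNA-Gly-GCC, -0.12 for tRNA-Glu-CTC, -0.13 for tRNA-Lys-CTT, -0.21 for tRNA-Gly-CCC and -0.04 for tRNA-Val-CAC, with standard errors between 0.14 and 0.25. For the 5′ end of tRNA-Lys-CTT it was -0.21 without library 24, and for that of tRNA-Glu-CTC -0.04 without library 6. Of all tRNA counts, between 36.9% and 42.4% came from 5′ ends in control libraries (median 37.9%) and between 35.8% and 40.8% after swim (median 37.4%). Libraries 24 and 26 were the highest controls. The mean difference was -0.97 percentage points (two-sided exact permutation test within blocks, p = 0.343), and -0.36 without library 24 (exact permutation p = 0.657). The ends that carry the added CCA made up 2.07% of tRNA counts in swim library 6 and at most 1.42% in any other dHC library.

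Of the less abundant tRNAs, tRNA-Cys-GCA and an entry of tRNA-Tyr-GTA without a genome match had an unadjusted p under 0.05 in edgeR. For tRNA-Cys-GCA control libraries lay between 241.6 and 331.8 normalized CPM (median 290.5) and swim libraries between 273.3 and 396.3 (median 364.3). The groups overlapped through swim library 16, the lowest of its group, and 5 of 6 swim libraries were above the control median. The log2 fold change was 0.29 (standard error 0.13, unadjusted p = 0.044), with 0.29, 0.38 and 0.22 in the blocks, and 0.23 (unadjusted p = 0.11 in edgeR) without library 24. For the tRNA-Tyr-GTA entry control libraries lay between 23.5 and 63.7 normalized CPM (median 51.0) and swim libraries between 37.6 and 211.9 (median 81.6). Library 24 was the lowest, and the log2 fold change of 0.71 (standard error 0.31) was 1.53, 1.28 and -0.53 in the blocks. It was 0.60 (unadjusted p = 0.10 in edgeR) without library 24. Swim library 16 had 211.9 normalized CPM for this entry, and the next highest swim library 115.3. For an entry of tRNA-His-GTG without a genome match, 0 of 6 swim libraries were above the control median, with a log2 fold change of -0.22 (standard error 0.11) and -0.19, -0.21 and -0.21 in the blocks.

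Of the 10 rRNA entries, 7 had values above 0 and 3 below. Within blocks the number above 0 was 8, 9 and 4. The smallest p was that of 45S, the precursor from which 18S, 5.8S and 28S rRNA are cut. Its level lay between 167.1 and 229.7 normalized CPM in control libraries (median 183.2) and between 187.7 and 283.5 after swim (median 243.3). All 6 swim libraries were above the control median, and library 24 was the lowest control. Its log2 fold change of 0.34 (standard error 0.13, unadjusted p = 0.026, adjusted p = 0.9936 in edgeR) was 0.38, 0.39 and 0.23 within the blocks. It was 0.31 (unadjusted p = 0.060) without library 24 and 0.25 (unadjusted p = 0.036) without library 6. The entry of 45S rRNA that did not match the genome had 0.21 (standard error 0.17) and 0.05 without library 6.

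Mature rRNA gave values of either sign. For 18S, of the small ribosomal subunit, control libraries lay between 881.9 and 2770 normalized CPM (median 1864) and swim libraries between 1296 and 2582 (median 2545). Libraries 8 and 6, both of block 1, were the lowest of their groups, and the log2 fold change was 0.28 (standard error 0.13, unadjusted p = 0.052 in edgeR). For 28S, of the large subunit and the most abundant entry with 3.78% of all counts, it was 0.04 (standard error 0.11). The 28S entry without a genome match had 0.27 (standard error 0.14, unadjusted p = 0.081 in edgeR). That of 18S had 0.30 (standard error 0.16, unadjusted p = 0.085 in edgeR). The log2 fold change was 0.30 (standard error 0.25) for 5.8S, -0.09 for its entry without a genome match and -0.02 (standard error 0.31) for 5S. For 4.5S, an RNA of rodents that is counted here as rRNA by its label alone, it was -0.23 (standard error 0.24). Swim library 6 was the lowest for 4.5S rRNA at 79.9 normalized CPM, and the log2 fold change was -0.08 without it and -0.35 without library 24.

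**Figure D5:**
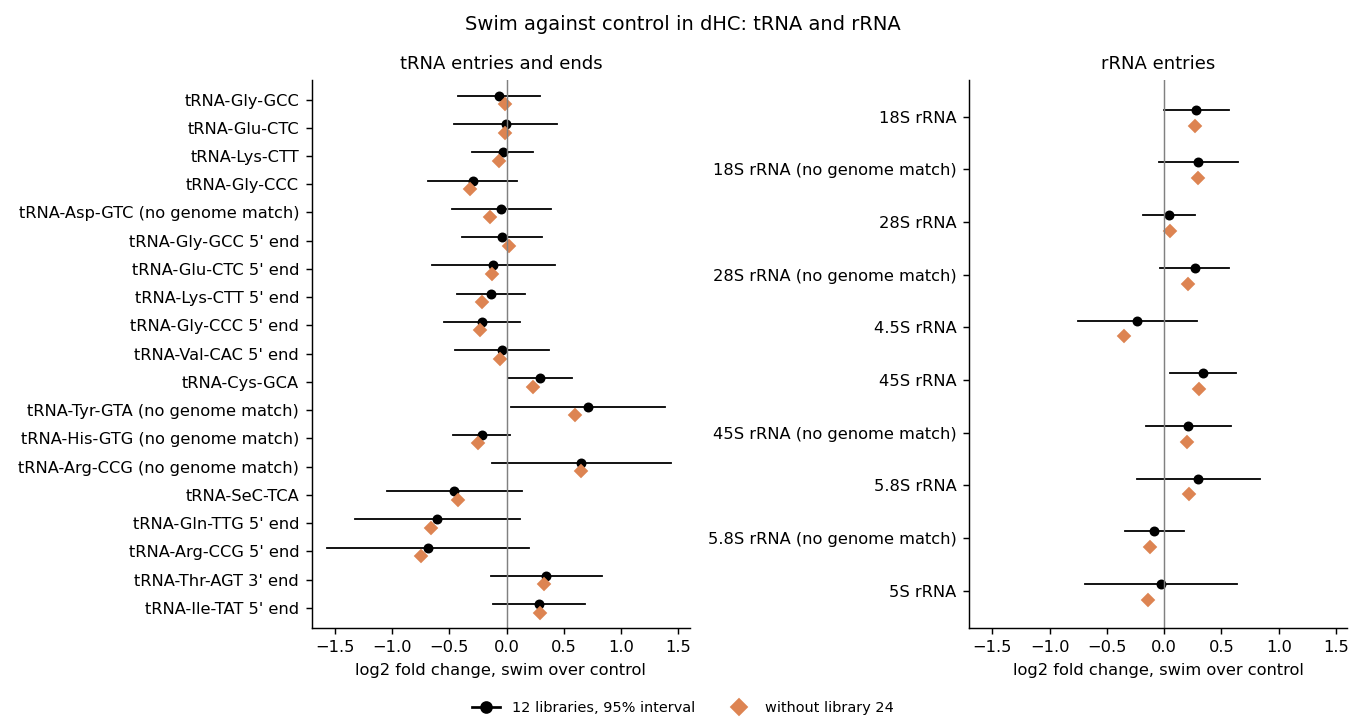
Log2 fold change, swim over control, of the named tRNA entries and tRNA ends (left) and of the 10 rRNA entries (right), with black points and 95% confidence intervals from all 12 libraries and orange diamonds for the value without control library 24. The intervals of 45S rRNA, tRNA-Cys-GCA and the tRNA-Tyr-GTA entry without a genome match lie above 0, with lower ends at 0.05, 0.01 and 0.04, and 7 of the 10 rRNA points lie above 0.

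The shares of miRNA, tRNA and rRNA among the counts differed by less than the spread of libraries. The miRNA share was between 88.8% and 92.7% in control libraries (median 91.4%) and between 89.2% and 92.9% after swim (median 90.0%). The rRNA share was between 3.48% and 6.73% in control libraries (median 4.83%) and between 3.86% and 6.80% after swim (median 5.77%), and the groups overlapped. With labels exchanged within blocks, which allows 216 arrangements and a smallest p of 0.00926, the adjusted p of the two-sided exact permutation test over the 3 classes was between 0.611 and 0.991. The mean rRNA difference of 0.378 percentage points was 0.188 without library 24, the control of block 2 with the lower rRNA share. Without control library 14 it was 0.503 (exact permutation p = 0.0463, adjusted p = 0.139).

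Library 24 lay outside the range of the other 5 control libraries for 188 of the 384 miRNAs, below it for 117 and above it for 71. Such numbers were not particular to it. Control library 8 was the lowest of its group for 103 miRNAs and the highest for 93, and swim library 22 for 111 and 80. Among the 20 most abundant miRNAs it was above the range for 13 and below it for 0. Leaving it out shifted the log2 fold change by a median of 0.033 in size and by over 0.1 for 18 of 384 miRNAs, and changed the sign of 35. For 19 of the 20 most abundant miRNAs the value moved up. The largest shift was that of mir-1298, by -0.25, and among clusters that of mir-3093 and mir-9-1, by 0.20.

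The number of miRNAs called was 0 with and without library 24. At an unadjusted p under 0.05 in edgeR there were 7 miRNAs without it in place of 5, of which mir-3084, mir-30b and mir-10b were in both counts, and 5 families in place of 3, with mir-3084 in both. For tRNA and rRNA entries the count fell from 3 to 0. The median standard error was 0.17 with it and 0.18 without it for miRNAs.

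Swim library 6 bore on the miRNAs with the smallest p. It was the lowest of its group for 113 and the highest for 101 of 384 miRNAs, and limma voom gave it the lowest weight of all 12, 0.179, against 0.746 for library 24. Without it 3 miRNAs had an unadjusted p under 0.05 in edgeR, with mir-30b the member shared with the 5, and of the 3 families at that level 0 remained. The blocks also differed in the values they gave. Of 384 miRNAs 51 had values above 0 in all 3 blocks and 26 below 0 in all 3, and the spread of the within-block differences was 0.45, 0.42 and 0.32 (SD over miRNAs, log2). What set libraries 24 and 6 apart was not tested.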

How the data were processed

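Small RNA libraries (Nextflex v3, from total RNA) of dHC were analysed. Before deposit, adapters were cut off with cutadapt, reads alike in sequence and molecular tag were merged, and Sports 1.0 assigned them to annotated RNAs. The authors deposited expected counts per annotated RNA, without normalization, for GRCm38 by their processing notes. In dHC 29.8% of values were not whole, and expected counts were rounded to whole numbers.

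Precursor copies were summed, which gave 962 miRNAs and 782 families from 1054 entries. Families came from a list for some miRNAs. For every other miRNA the family was its name without letter and copy number, whatever its seed. Entries were placed by name in GENCODE vM21 or RefSeq (1046 of 1051). Tests used edgeR 4.0.16 in R 4.3.3, with filterByExpr (minimum count 10, minimum total 15), TMM, block and condition in the model, the quasi-likelihood test and Benjamini-Hochberg adjustment at 0.05. Library size was the sum over miRNAs, and for tRNA and rRNA entries the sum over the whole table without tRNA ends, which are part of the tRNA entries. Unadjusted p-values are from the same test. Class shares were tested by exact permutation within blocks. The edgeR fit of miRNAs was run on simulated counts, with the same dispersion for all miRNAs and no block effect. The other fits were not. Alternatives used DESeq2 1.42.0, limma 3.58.1 and sva 3.50.0. Figures were drawn with matplotlib 3.10.9.

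The members and lists were chosen with earlier results of these data known. Named were the 10 most abundant miRNAs and the 10 with the smallest p, mir-132, mir-212 and mir-124, the 10 most abundant families and the 5 with the smallest p, the 5 most abundant clusters, the 5 with the smallest p and 4 listed ones, the 5 most abundant and the 5 smallest p of tRNA entries and of tRNA ends, and all rRNA entries. Members of these families and clusters, ends of ranges, and mir-134 and mir-138 were named after their values were seen. The table had 0 columns without a sample. The 14 libraries of ventral hippocampus entered alternatives only.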

Additional observations from a re-analysis of the deposited data

Results flagged for a closer look

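Groups of 6 libraries were looked at for a library far from the others, by the 95% critical value of Dixon's test, with CPM on the log2 scale. Most of the 170 groups held values of the named items, and 9 had such a library. About 1 in 20 groups would have one by chance. Of these, 3 were the lowest or highest value of swim library 16: 29340 normalized CPM for the mir-181 family (the next swim library had 23460), 273.3 for tRNA-Cys-GCA (next 355.7) and 300.3 for 45S rRNA without a genome match (next 554.5). Control library 24 had the highest control value of the mir-99/100 family, 27000 (next 22500), and the lowest of tRNA-Tyr-GTA without a genome match, 23.5 (next 45.3). Swim library 6 had the lowest swim value of 4.5S rRNA, 79.9 (next 199.4). Swim library 22 had the lowest of mir-669l, 1.83 (next 4.89), swim library 28 the lowest of tRNA-Gly-GCC, 7831 (next 9568), and control library 26 the highest of 5.8S rRNA without a genome match, 9029 (next 6249).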

How the results depend on the processing

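Under the alternatives (26 for miRNAs, 25 for families and 24 each for clusters and for tRNA and rRNA entries), 0 items were called. They changed the scaling, the tool, the filter, the handling of copies, the surrogate variables, the block term and the libraries. The fits of both regions with block and without libraries 24 and 6 together, and the shares of tRNA ends, were chosen after seeing the data. The number at an unadjusted p under 0.05 was between 2 and 21 for miRNAs, 1 and 17 for families, 0 and 3 for clusters and 0 and 8 for tRNA and rRNA entries. Without swim library 16 it was 17 for miRNAs and 15 for families, and the smallest adjusted p was 0.776 and 0.6998 in edgeR. For clusters the smallest adjusted p was 0.5385, without control library 18, and for tRNA and rRNA entries 0.4853, with both regions and 2 surrogate variables. Of 1895 values of the 77 named items under alternatives 88 had the other sign, and 50 items kept their sign throughout. Within blocks 38 of 231 values moved by over 1 SD. The depth of library 24 limits it to miRNAs of higher level. The confidence interval of the fold change lay within 1.5-fold for 262 of 384 miRNAs, and changes within 1.5-fold stay possible for many single miRNAs. Which sizes of change could be detected was not computed.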
